A study of Homo sapiens with 36 samples.

Results

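The miR-193 and miR-365 genes lie in 2 paralogous clusters, miR-193b with miR-365a on chromosome 16 and miR-193a with miR-365b on chromosome 17. Their mature miRNAs filled 7 of the 1508 rows of the count table, taken by name: hsa-miR-193b-3p, hsa-miR-193b-5p and hsa-miR-365a-5p from chromosome 16, hsa-miR-193a-3p, hsa-miR-193a-5p and hsa-miR-365b-5p from chromosome 17, and 1 row that joins hsa-miR-365a-3p and hsa-miR-365b-3p. The libraries were small RNA-seq of cultured WI-38 human lung fibroblasts, a normal diploid strain with a limited lifespan, in 18 conditions with 2 replicates each. Ctrl was proliferating untreated cells, which the labels call young. For PMD-Sen the plasma membrane was injured with 0.0095% of the detergent SDS over 24 h, and for DDR-Sen the DNA was damaged with 250 nM doxorubicin (DXR) over 24 h. Each series has 8 time points, every day from D0 to D4 and then D6, D8 and D16. Per the paper, days count from washout, and D0 cells were taken at the end of the 24 h treatment, before the agent was removed. RS cells had reached senescence by repeated division, at a population doubling level of 54 to 56. All libraries came from the same cell strain in culture, and the labels call the replicates biological without saying how they were kept apart, so p-values measure the spread between these libraries. The members were chosen by name, in a family selected on the lower PMD-Sen D16 levels of miR-193b-5p and miR-365b-5p against Ctrl, so PMD-Sen D16 against Ctrl is given here as a description without a p-value.

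A miRNA gene is transcribed as a long RNA and cut to a hairpin, and Dicer then releases a short duplex with a 5p and a 3p strand. Argonaute usually keeps one strand, the guide, and the other is degraded. The seed of the guide pairs with sites in target mRNAs, so strands with the same seed share most predicted targets whichever chromosome they come from. miR-193b and miR-365 are known from brown fat differentiation, and miR-193b-3p is known as a repressor of the mRNA of cyclin D1, which drives cells into the cell cycle.

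The mature sequences show which strands can be told apart by reads and which share a seed. They were taken from RefSeq with GRCh38.p14 coordinates, where all 8 names were found, and are written 5′ to 3′ with the seed (bases 2 to 8) in capitals.
hsa-miR-193a-3p: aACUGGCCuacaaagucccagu
hsa-miR-193b-3p: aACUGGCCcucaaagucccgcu
hsa-miR-193a-5p: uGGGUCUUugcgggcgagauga
hsa-miR-193b-5p: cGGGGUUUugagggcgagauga
hsa-miR-365b-5p: aGGGACUUucaggggcagcugu
hsa-miR-365a-5p: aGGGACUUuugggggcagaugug
hsa-miR-365a-3p and hsa-miR-365b-3p: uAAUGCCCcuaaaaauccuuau
The 3p strands of miR-193a and miR-193b share the seed ACUGGCC and differ at 4 of 22 bases, U9C, A10U, A20G and G21C, written as the chromosome 17 base, the position from the 5′ end and the chromosome 16 base. Their 5p strands differ at 4 of 22 bases too, U1C, U5G, C6U and C11A, and U5G and C6U fall in the seed, so the seeds are GGGUCUU and GGGGUUU. The 5p strands of miR-365 share the seed GGGACUU and differ over their first 22 bases by C10U, A11G and C19A. The 3p strands of miR-365 are identical over all 22 bases, so their single row cannot be divided between the chromosomes.

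On GRCh38.p14 the MIR193B hairpin lies at chr16:14303967-14304049 and the MIR365A hairpin at chr16:14309285-14309371, with 5235 nt between them. Both are on the plus strand in an intron of the lncRNA gene MIR193BHG in GENCODE. The MIR193A hairpin lies at chr17:31559996-31560083 and the MIR365B hairpin at chr17:31575411-31575521, 15327 nt apart on the plus strand. MIR365B falls partly in an exon of the lncRNA gene MIR365BHG, and no GENCODE host gene covers MIR193A. Of the other miRNA genes within 100 kb, MIR4725, also on chromosome 17, had 77 counts for miR-4725-3p and 106 for miR-4725-5p over all libraries, in 25 and 32 libraries.

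The libraries held 81668 to 1933435 counts, with a median of 376989. Of the 1508 miRNAs, 360 passed the low-count filter of edgeR over all 36 libraries, and the biological coefficient of variation was 20.9%. The fibroblast miRNAs fixed as markers (miR-21-5p, miR-199a-3p, miR-214-3p, miR-143-3p and miR-145-5p) summed to 55578 to 135035 CPM, counts scaled to a common library size, over the libraries. The 6 blood markers, of which 4 are listed, summed to 0 to 13.3 CPM and each of the 4 had a median of 0, as did both neuronal markers, which summed to 0 to 15.8 CPM. The 6 epithelial markers summed to 16.1 to 173 CPM with 4 at a median of 0, the 2 endothelial ones to 19.1 to 191, the 3 muscle ones to 0 to 40.1 and the liver miRNA miR-122-5p to 6.16 to 279. Their part in the members' levels was not tested, and in bulk RNA fewer cells of a type and less RNA per cell cannot be told apart.

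The members were very unequal in counts. miR-193a-5p, from chromosome 17, was the most abundant member with a median of 573 counts per library, rank 67 of the listed miRNAs. The joined miR-365-3p row followed with a median of 299.5 counts (rank 95), then miR-193b-3p with 49, miR-365b-5p with 43, miR-193b-5p with 15.5 and miR-365a-5p with 8. miR-193a-3p, the other strand of the most abundant member, had 0 counts in 18 of 36 libraries, at most 9 in any library and 39 in total. It was the only member that did not pass the filter, so 6 members were tested. All mature strands are 22 or 23 nt long, so CPM compares them almost per length, but ligation and amplification differ between sequences and were not calibrated.

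The strands kept also differed between the paralogues. Summed over the libraries, the 3p strand made up 0.172% of miR-193a (39 of 22707 counts), 76.0% of miR-193b (2029 of 2669) and 86.8% of miR-365 (12074 of 13903). miR-193a was therefore counted almost wholly as its 5p strand, and miR-193b and miR-365 mostly as their 3p strands. The share of 3p in miR-193b ran from 36.2% in DDR-Sen D4 replicate 1 to 94.0% in PMD-Sen D16 replicate 2, and in miR-365 from 64.2% in PMD-Sen D1 replicate 2 to 96.3% in RS replicate 2. Of the rows that can be assigned to 1 chromosome, chromosome 16 held 10.9% (2977 of 27205 counts). That share was 6.46% in DDR-Sen D4 replicate 1, had a median of 10.7% and reached 22.1% in RS replicate 2. Among these rows chromosome 17 was thus ahead in every library, and nearly all of its counts were miR-193a-5p. The other rows of chromosome 17 held 1521 (miR-365b-5p) and 39 counts (miR-193a-3p). Those of chromosome 16 held 2029 (miR-193b-3p), 640 (miR-193b-5p) and 308 (miR-365a-5p). The joined miR-365-3p row, with 12074 counts, cannot be assigned, so the whole output of the clusters cannot be ranked. Among miR-365-5p counts, miR-365a on chromosome 16 held 16.8% (308 of 1829).

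miR-193a-5p was high early and low late in PMD-Sen. Its levels in the 2 libraries, in TMM-scaled CPM, were 1796 and 1347 in Ctrl. PMD-Sen D0 had 2858 and 1906, D1 had 1860.0 and 3797, D2 had 1410.0 and 2955, and D3 had 1295 and 1966. Then D4 had 1251 and 1619, D6 had 992 and 1407, D8 had 887 and 1082, and D16 had 793 and 911. The D8 and D16 libraries all lay below both Ctrl libraries, and the highest library of the whole study was D1 replicate 2. DDR-Sen D0 had 1528 and 1686, D1 had 1126 and 1876, D2 had 1473 and 1981, and D3 had 1994 and 2020.3. Then D4 had 2763 and 2078, D6 had 1799 and 2034, D8 had 1699 and 1916, and D16 had 1078 and 831. DDR-Sen thus had its highest pair at D4, and only its D16 pair lay below both Ctrl libraries. RS gave 2138 in replicate 1 and 557 in replicate 2, which is the lowest library of all. The condition means ran from 2828 CPM at PMD-Sen D1 to 852 CPM at PMD-Sen D16, a ratio of 3.32, and in that order all 17 pairs of neighbouring conditions overlapped.

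**Figure D1:**
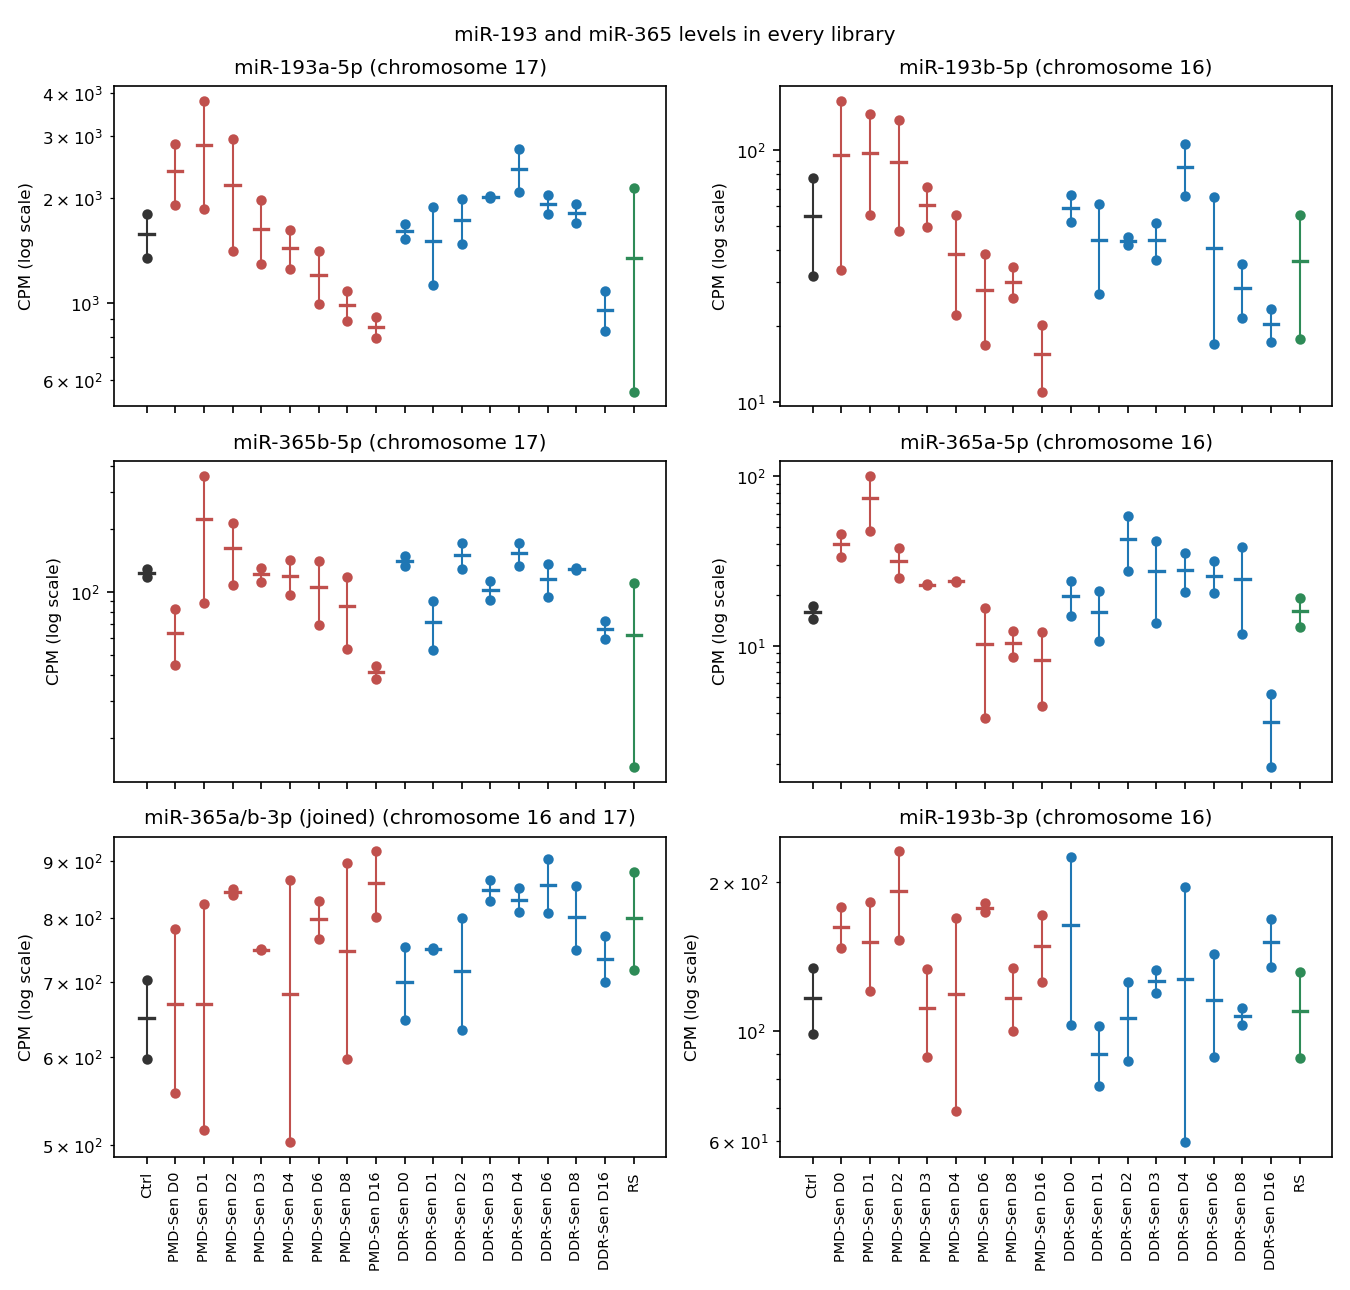
Levels of the 6 tested members in every library, in TMM-scaled CPM on a log scale, with conditions on the x axis. Points are libraries, short bars the mean of the 2 replicates and vertical lines their range; Ctrl is black, PMD-Sen red, DDR-Sen blue and RS green. The 4 panels of 5p rows run lower from PMD-Sen D1 to D16, for miR-193a-5p from a mean of 2828 to 852 CPM, and the joined miR-365-3p panel spans only 650.5 to 860.1 CPM in condition means.

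miR-193b-5p, the chromosome 16 counterpart of miR-193a-5p, was far lower in every library. Ctrl had 77.3 and 31.5 CPM, PMD-Sen D0 had 156 and 33.4, D1 had 54.9 and 138, D2 had 47.6 and 130.3, and D3 had 49.5 and 71.0. Then D4 had 22.2 and 55.1, D6 had 16.8 and 38.7, D8 had 25.8 and 34.1, and D16 had 20.1 and 11.0. Both Ctrl libraries lay inside the range of the PMD-Sen series, and both D16 libraries lay below them. In DDR-Sen the row was highest at D4, with 105 and 65.2 CPM, and lowest at D16, with 23.3 and 17.3. RS gave 54.9 and 17.7 CPM. Every neighbouring pair in the order of condition means overlapped, and a library held as few as 3 counts.

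miR-365b-5p, from chromosome 17, had 129 and 117 CPM in Ctrl. PMD-Sen D0 gave 82.7 and 44.6, D1 gave 87.9 and 358, D2 gave 108 and 214, D3 gave 130.5 and 111, and D4 gave 96.6 and 141. Then D6 gave 69.3 and 141, D8 gave 53.4 and 117, and D16 gave 38.1 and 44. The replicates of D1 lay far apart, while the D16 replicates lay close together and below both Ctrl libraries, as the D0 pair did. In DDR-Sen the lowest pairs were 52.4 and 90.2 at D1 and 72.6 and 59.5 at D16, and the highest library was D4 replicate 2 with 172. RS gave 109.7 and 14.5 CPM.

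miR-365a-5p, the same strand from chromosome 16, had 17.2 and 14.3 CPM in Ctrl, which is 4 and 5 counts. PMD-Sen D0 gave 45.9 and 33.4, D1 gave 47.6 and 101, D2 gave 25.0 and 37.8, D3 gave 23.1 and 22.8, and D4 gave 23.8 and 24.1. Then D6 gave 3.74 and 16.6, D8 gave 8.61 and 12.2, and D16 gave 12.0 and 4.40. The D0 to D4 libraries all lay above both Ctrl libraries and the D8 and D16 libraries all below them. In DDR-Sen it ranged from 5.18 and 1.92 at D16 to 27.6 and 58.0 at D2. RS gave 19.1 and 12.9 CPM.

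The 3p rows showed no such course. miR-193b-3p had 98.8 and 134 CPM in Ctrl, and the PMD-Sen pairs ran from 134 and 88.7 at D3 to 153 and 231 at D2, with 126 and 172 at D16. In DDR-Sen the pairs ran from 103 and 77.6 at D1 to 103 and 225 at D0, ordered by their mean as in PMD-Sen. The lowest single libraries of miR-193b-3p were DDR-Sen D4 replicate 1 at 59.6, beside 196 in replicate 2, and PMD-Sen D4 replicate 2 at 68.9. Its condition means differed by a ratio of 2.13 at most, and all neighbours in their order overlapped. The joined miR-365-3p row was the steadiest member: it had 597 and 704 CPM in Ctrl, 516 and 823 at PMD-Sen D1, 748 and 750.1 at D3, and 802 and 918 at PMD-Sen D16. In DDR-Sen it had 752 and 749 at D1 and 769.9 and 700.1 at D16, and RS gave 880.4 and 718. Its highest condition mean was 1.32 times its lowest.

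To ask whether the members changed along each series, D6, D8 and D16 were compared with D1, D2 and D3. In PMD-Sen all 4 tested 5p rows fell and neither 3p row passed the test (edgeR quasi-likelihood test, Benjamini-Hochberg adjusted p below 0.05). The late libraries include PMD-Sen D16, where low miR-193b-5p and miR-365b-5p chose the family, so these calls and fold changes are a description. The contrast without D16 is tested below. Of all 360 tested miRNAs, 28.9% were called in this comparison, 57 down and 47 up, and the median log2 fold change over all was -0.03. For miR-193a-5p the 6 early libraries had a lowest, median and highest level of 1295, 1913 and 3797 CPM, and the 6 late libraries 793, 952 and 1407 CPM. That is a log2 fold change of -1.10 (SE 0.23), and 5 of the 6 late libraries lay below every early one. For miR-193b-5p the early libraries had 47.6, 62.9 and 138 CPM and the late ones 11.0, 23.0 and 38.7 CPM, without overlap (-1.70, SE 0.40). For miR-365a-5p the early libraries had 22.8, 31.4 and 101 CPM and the late ones 3.74, 10.3 and 16.6 CPM, again without overlap (-1.91, SE 0.41). Over all tested miRNAs, 17 of 360 had every late PMD-Sen library below every early one, and 21 had every one above. For miR-365b-5p the early libraries had 87.9, 121 and 358 CPM and the late ones 38.1, 61.3 and 141 CPM, which overlap (-1.18, SE 0.33). The 3p rows had log2 fold changes of -0.02 (SE 0.25) for miR-193b-3p and 0.10 (SE 0.14) for the joined miR-365-3p row. The 5p rows that fell come from both chromosomes, and the arms of miR-193b, cut from the same hairpin, gave -1.70 for 5p and -0.02 for 3p.

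**Figure D2:**
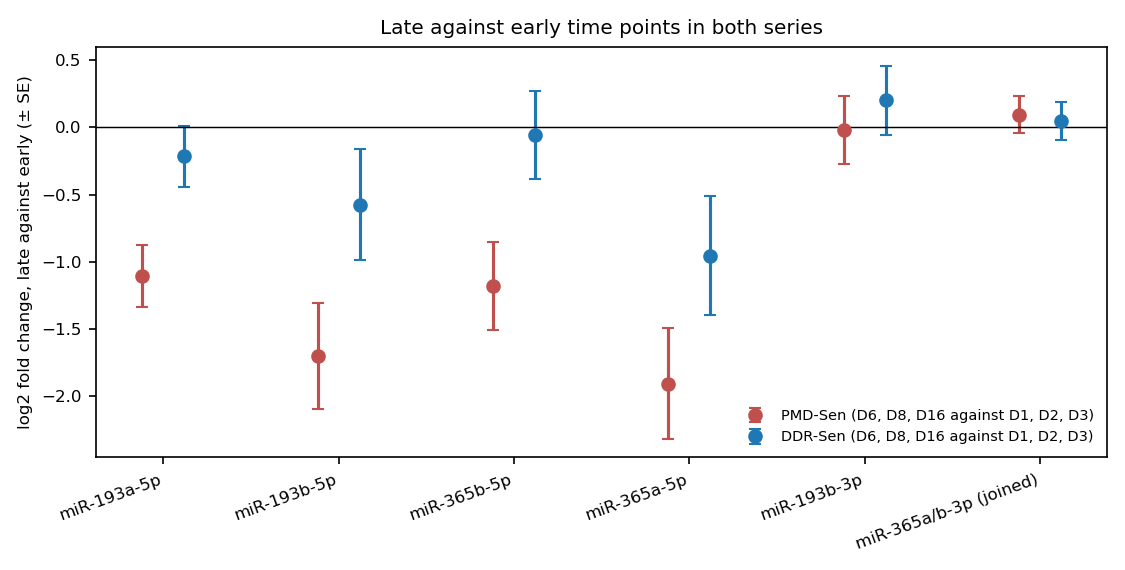
Log2 fold change of D6, D8 and D16 against D1, D2 and D3 for each tested member (x axis), in PMD-Sen (red) and DDR-Sen (blue), with bars of 1 SE from edgeR. The 5p members stand at -1.10 to -1.91 in PMD-Sen and at -0.06 to -0.96 in DDR-Sen, and the 3p members at -0.02 to 0.20 over both.

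Because the D16 libraries were in view when the family was chosen, the same contrast was also made without them. Then miR-193a-5p was at -0.99 (SE 0.26, edgeR adjusted p = 0.00884), miR-193b-5p at -1.46 (SE 0.45, adjusted p = 0.0247) and miR-365a-5p at -1.89 (SE 0.48, adjusted p = 0.00714), so 3 of 6 members were still called, beside 15.8% of all tested miRNAs. miR-365b-5p was at -0.78 (SE 0.37, edgeR adjusted p = 0.141) and was no longer called. It also lost its call without PMD-Sen D1 replicate 2 (-0.76, adjusted p = 0.0949) or without PMD-Sen D2 replicate 2 (-0.92, adjusted p = 0.0557). With D3 as the only early time point none of the 4 passed, at -0.70, -1.32, -1.23 and -0.78 for miR-193a-5p, miR-193b-5p, miR-365a-5p and miR-365b-5p, beside 5 called miRNAs of 360 in this smaller contrast.

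In DDR-Sen the same contrast called 0 of the 6 members, beside 15.8% of all tested miRNAs and, without D16, 7.78%. At an unadjusted p below 0.05 it would call 1, miR-365a-5p, at -0.96 (SE 0.44, edgeR adjusted p = 0.129), and DESeq2 called 0 at adjusted p. miR-193b-5p was at -0.58 (SE 0.41), miR-193a-5p at -0.22 (SE 0.23) and miR-365b-5p at -0.06 (SE 0.33). The 6 early DDR-Sen libraries of miR-193a-5p had 1126, 1928 and 2020.3 CPM as lowest, median and highest and the 6 late ones 831, 1749 and 2034, so they overlapped over nearly their whole range. Without D16, miR-193a-5p and miR-365b-5p were at 0.11 and 0.24 in DDR-Sen.

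The drop in PMD-Sen and its lack of a call in DDR-Sen do not show that the series differ, so the difference of the contrasts was tested. PMD-Sen minus DDR-Sen was -0.89 (SE 0.32) for miR-193a-5p, -1.13 (SE 0.57) for miR-193b-5p, -1.12 (SE 0.46) for miR-365b-5p and -0.95 (SE 0.64) for miR-365a-5p on the log2 scale. The edgeR adjusted p values were 0.0950, 0.235, 0.131 and 0.396, so 0 of 6 members passed, as with DESeq2, beside 3.61% of all tested miRNAs. At an unadjusted p below 0.05, 2 would pass, miR-193a-5p and miR-365b-5p, and both passed at adjusted p when PMD-Sen D1 replicate 1 was left out (0.0337 and 0.0376), which assumes that the lone D1 library varies like the other conditions. Without D16 the difference was -1.09 (SE 0.36) for miR-193a-5p, -1.15 (SE 0.64) for miR-193b-5p, -1.02 (SE 0.51) for miR-365b-5p and -1.87 (SE 0.65) for miR-365a-5p, with edgeR adjusted p of 0.0938, 0.328, 0.274 and 0.113. With D16 the 3p rows differed by -0.22 (SE 0.36) for miR-193b-3p and 0.05 (SE 0.20) for miR-365-3p.

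PMD-Sen was also compared with DDR-Sen over D1 to D16, with the day in the model and 28 libraries. Of 284 miRNAs tested there, 25.7% were called, and of the 5 members tested 0 were, by edgeR or DESeq2 at adjusted p. miR-365a-5p did not pass the filter of this model. miR-193b-3p was at 0.29 higher in PMD-Sen (SE 0.16, edgeR adjusted p = 0.210), miR-193a-5p at -0.22 (SE 0.15), miR-193b-5p at 0.08 (SE 0.26), miR-365-3p at -0.05 (SE 0.08) and miR-365b-5p at 0.01 (SE 0.22). At an unadjusted p below 0.05 the count is also 0. With total counts in place of TMM scaling miR-193b-3p passed at 0.46 (edgeR adjusted p = 0.0428), and without DDR-Sen D4 replicate 2 it passed at 0.45 (adjusted p = 0.0355).

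Each time point and RS were then compared with Ctrl by the study's thresholds, an unadjusted p below 0.05 with an absolute log2 fold change above 1. The share of all tested miRNAs called at these thresholds was 5.28% at PMD-Sen D0, 7.22% at D1, 6.39% at D2, 2.78% at D3, 6.39% at D4, 9.17% at D6 and 13.3% at D8. In DDR-Sen it was 3.89% at D0, 6.94% at D1, 6.94% at D2, 5.83% at D3, 9.17% at D4, 11.7% at D6, 12.8% at D8 and 21.4% at D16, and in RS 22.2%. Over these 16 comparisons 2 of the 96 tests of members passed, both for miR-365a-5p, and 0 passed at an adjusted p below 0.05. miR-365a-5p was 2.18 higher on the log2 scale at PMD-Sen D1 (SE 0.72, edgeR adjusted p = 0.123), from 13 and 16 counts against 4 and 5 in Ctrl. The call was lost without PMD-Sen D1 replicate 2, at 1.58. DESeq2 kept it over all libraries and lost it on only the 4 libraries compared. It was lower at DDR-Sen D16, where both libraries together held 3 counts against 9 in Ctrl, a ratio of 0.214 after scaling with an exact 95% counting interval of 0.0373 to 0.857. That call was lost without either Ctrl library, without DDR-Sen D16 replicate 2, with a GC offset and with DESeq2.

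At PMD-Sen D16 against Ctrl, which chose the family, miR-193b-5p was at -1.62 (SE 0.71) and miR-365b-5p at -1.59 (SE 0.59), both past those thresholds, beside 16.9% of all tested miRNAs. The other members stood at -0.88 (SE 0.40) for miR-193a-5p, -0.70 (SE 0.76) for miR-365a-5p, 0.32 (SE 0.44) for miR-193b-3p and 0.40 (SE 0.24) for miR-365-3p. At DDR-Sen D16 the same rows stood at -1.37 (SE 0.75) for miR-193b-5p, -0.90 (SE 0.59) for miR-365b-5p, -0.72 (SE 0.40) for miR-193a-5p and -2.12 (SE 0.99) for miR-365a-5p, and at 0.37 (SE 0.45) for miR-193b-3p and 0.17 (SE 0.24) for miR-365-3p. Both comparisons use the same Ctrl libraries. Set directly against each other, PMD-Sen D16 and DDR-Sen D16 differed by -0.24 (SE 0.74) for miR-193b-5p, -0.70 (SE 0.59) for miR-365b-5p and, in the other direction, 1.42 (SE 0.91) for miR-365a-5p. In RS, miR-365b-5p was at -1.06 (SE 0.59, edgeR adjusted p = 0.215) and the other members lay between -0.58 and 0.29.

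The paralogues were compared inside each library, which removes the scaling, as the log2 ratio of chromosome 16 to chromosome 17 counts with 0.5 added to each. miR-193b-5p over miR-193a-5p averaged -5.12 ± 0.50 (SD, n = 14) in PMD-Sen and -5.42 ± 0.53 in DDR-Sen over D1 to D16. The difference of 0.30 was within what an exact two-sided permutation of the series labels within days gives (p = 0.118, adjusted over the 3 paralogue ratios 0.322). miR-365a-5p over miR-365b-5p averaged -2.39 ± 0.74 and -2.43 ± 0.95, a difference of 0.03 (exact permutation p = 0.912). The ratio of the miR-193 3p strands rests on the zeros of miR-193a-3p. It gave a difference of 0.56 (exact permutation p = 0.215), which the counts cannot interpret, and no library had 10 counts of miR-193a-3p.

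The miR-365-5p ratio fell with day in PMD-Sen up to D8. miR-365a-5p over miR-365b-5p was -0.79 and -0.36 at D0 and averaged -1.33 at D1, -2.34 at D3, -3.45 at D6 and -2.83 at D8. The D16 libraries were at -1.65 and -3.04. Ctrl was at -2.76 and -2.92, and RS at -2.45 and -0.16, the latter the highest library of all. Within PMD-Sen the chromosome 16 row was relatively highest at D0 and D1 by mean. The D0 values rest on 5 against 9 and 3 against 4 counts. Without the 2 D16 libraries, Pearson's r with day was -0.81 and Spearman's rho -0.90 (permutation p = 0.000530 and 4e-05, adjusted over 6 ratios and series 0.00318 and 0.00024, 100000 permutations). Over all 16 PMD-Sen libraries r was -0.45 and rho -0.70, as a description. Only 6 of the PMD-Sen libraries had 10 counts of both rows, and within them r was 0.01. These 6 include D16 replicate 1 (-1.65), which the r of -0.81 leaves out. The others, from D1 to D4, stood at -0.86, -1.80, -2.05, -2.45 and -1.99 in order of day. They were too few to give r without D16. In DDR-Sen r was -0.55 (p = 0.0262, adjusted 0.0856) and rested on D16, since without it r was -0.00. miR-193b-5p over miR-193a-5p had r of -0.32 in PMD-Sen without D16 (adjusted permutation p = 0.414) and of -0.40 in DDR-Sen (adjusted permutation p = 0.183).

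The arm ratios of miR-193b and miR-365 were highest at D16 in both series. miR-193b 3p over 5p averaged 0.75 at PMD-Sen D1, 0.87 at D3, 2.75 at D6, 1.93 at D8 and 3.23 at D16 on the log2 scale. Its Ctrl libraries were at 0.34 and 2.05. miR-365 3p over 5p, with both 5p rows summed, averaged 1.38 at D1, 2.88 at D6, 3.02 at D8 and 4.10 at D16, where the libraries were at 3.99 and 4.21, and it was 2.02 and 2.41 in Ctrl. DDR-Sen D16 averaged 2.84 for miR-193b and 3.39 for miR-365. Low 5p rows at PMD-Sen D16 chose the family and are the denominators here, so over all 16 PMD-Sen libraries r with day is a description, 0.66 for miR-193b and 0.76 for miR-365, with rho of 0.60 and 0.62. Without D16 r was 0.50 and 0.48 (permutation p = 0.0688 and 0.0821, adjusted over 6 ratios and series 0.246 for both). Among PMD-Sen libraries with at least 10 counts of each arm, r without D16 was 0.61 and 0.58, as a description. In DDR-Sen r was 0.54 for miR-193b and 0.53 for miR-365 (both with an adjusted permutation p of 0.0410), with rho of 0.47 and 0.38 (adjusted 0.141 and 0.226). These calls were lost with a pseudocount of 1 (adjusted permutation p = 0.0523 for both), and without D16 r was 0.22 and 0.00, so they rested on D16. For miR-193a r was 0.18 in DDR-Sen (adjusted permutation p = 0.498) and 0.01 in PMD-Sen without D16, from at most 9 counts of the 3p strand in a library. Between the series the arm ratios differed by 0.24 for miR-193b and -0.02 for miR-365 (exact permutation p = 0.507 and 0.947).

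**Figure D3:**
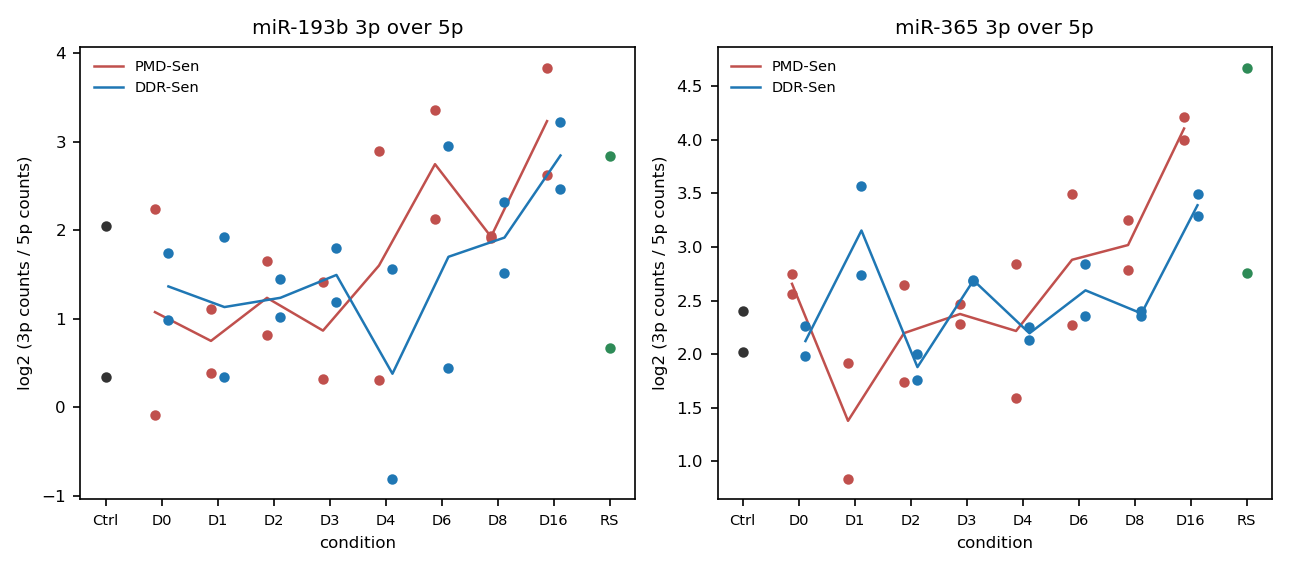
Log2 ratio of 3p to 5p counts within each library for miR-193b and for miR-365 (both 5p rows summed), by condition on the x axis. Points are libraries and lines join the means of the 2 replicates; PMD-Sen is red, DDR-Sen blue, Ctrl black and RS green. D16 has the highest mean of both series, 4.10 in PMD-Sen and 3.39 in DDR-Sen for miR-365.

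A property of the libraries moved with miR-193a-5p and, less regularly, with other members. For each library the deviation of log2 CPM from the row means was fitted against the GC content of the mature sequences, known for 329 of the 360 tested miRNAs. The slope, in log2 CPM per 10 points of GC, ran from -0.23 to 0.31 over the libraries, and the replicates of RS, PMD-Sen D0, D2 and D1 differed most in it, by 0.42, 0.41, 0.36 and 0.33. miR-193a-5p was higher in the replicate with the higher slope in 17 of 18 conditions, miR-365a-5p in 15, miR-193b-5p in 14, miR-365-3p in 13, miR-365b-5p in 10 and miR-193b-3p in 7. At RS the miR-193a-5p replicates differed 3.84-fold and at PMD-Sen D2 and D1 2.10-fold and 2.04-fold. The tested 5p strands hold 56.5% to 59.1% GC, miR-193b-3p also 59.1% and miR-365-3p 31.8%. In PMD-Sen the slope had a median of 0.03 over the early libraries and -0.10 over the late ones, and in DDR-Sen -0.06 and -0.04. The GC content was also used as an offset in the model, chosen after seeing the data. The late against early log2 fold changes in PMD-Sen were then -0.88, -1.47, -1.74 and -0.96 for miR-193a-5p, miR-193b-5p, miR-365a-5p and miR-365b-5p. All 4 passed at adjusted p, as a description, because this contrast keeps the D16 libraries that chose the family. The offset is not given without D16.

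**Figure D4:**
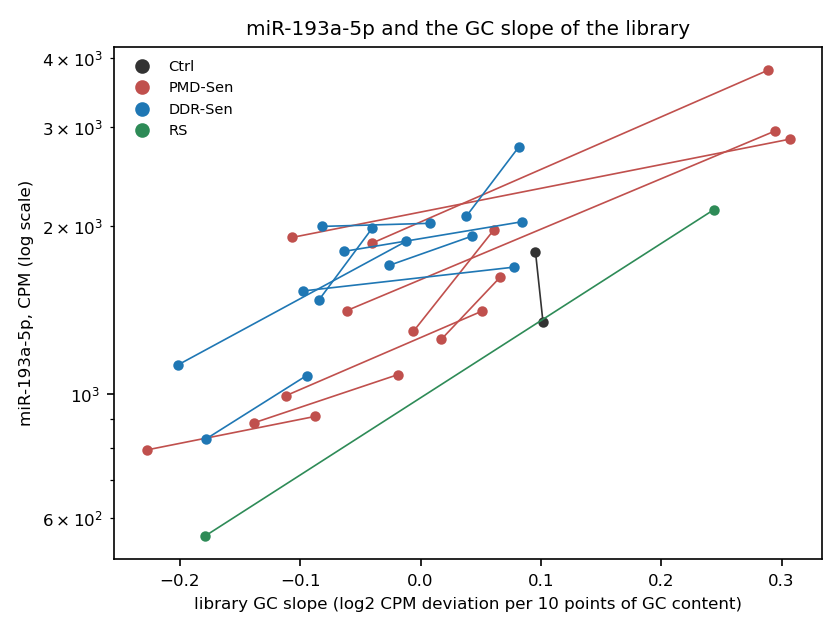
Level of miR-193a-5p in TMM-scaled CPM (log scale) against the GC slope of the library, in log2 CPM deviation per 10 points of GC content of the mature sequence. Points are libraries, and lines join the 2 replicates of a condition; in 17 of 18 conditions the replicate with the higher slope has the higher miR-193a-5p level, Ctrl being the exception.

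Across the 36 libraries the 5p rows ranked alike to different degrees and the arms of miR-193b did not, as a description over libraries that share depth and GC slope. Spearman's rho of log2 CPM was 0.76 between miR-193a-5p and miR-193b-5p, 0.74 between miR-193a-5p and miR-365a-5p and 0.49 between miR-193a-5p and miR-365b-5p. It was 0.40 between the paralogues miR-365a-5p and miR-365b-5p, the lowest of the 5p pairs, and -0.18 between the 5p and 3p strands of miR-193b. Outside the family the rows most like miR-193a-5p were miR-423-5p (rho 0.93), miR-320a (0.90) and miR-92b-3p (0.84). The rows most like miR-365b-5p were miR-7706 (0.63), miR-1908-5p (0.61) and miR-125b-1-3p (0.59). For the 3p rows the closest were weaker, miR-328-3p at 0.58, miR-1296-5p at 0.51 and miR-331-3p at 0.49 for miR-365-3p, and miR-331-3p at 0.53, miR-15b-5p at 0.52 and miR-22-3p at 0.49 for miR-193b-3p.

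miR-193b-3p is 1 of several miRNAs known as repressors of cyclin D1 mRNA, and 10 others were listed for comparison, of which 8 were tested. In PMD-Sen late against early 2 of the 8 rose and 2 fell (edgeR, adjusted p below 0.05), beside 28.9% of all tested miRNAs called. miR-34a-5p, which p53 is known to induce, rose by 0.55, and miR-17-5p and miR-20a-5p, from a cluster known to promote proliferation, were at -0.78 and -0.59. miR-424-5p was at 0.40 and did not pass, and the other one that rose, named after its value was seen, was miR-503-5p at 0.39. In DDR-Sen 3 fell and 0 rose, beside 15.8% of all called, miR-20a-5p at -1.08, miR-17-5p at -1.07 and, named after its value was seen, miR-16-5p at -0.86. The difference between the series was called for 0 of the 8, beside 3.61% of all tested miRNAs. Over D1 to D16 PMD-Sen was higher in 2 and lower in 1, beside 25.7% of all tested there. miR-193b-3p, at -0.02 and 0.20 in these contrasts, was called in neither. Against Ctrl, by the unadjusted thresholds, 5 of the 8 were lower in RS and 4 in DDR-Sen D16, beside 22.2% and 21.4% of all called, and at PMD-Sen D16 2 were lower and 1 higher, beside 16.9%, while miR-193b-3p was at -0.08 (SE 0.45) and 0.37 (SE 0.45). Over the 8 the median log2 fold change was -1.62 in RS, -1.10 at DDR-Sen D16 and -0.42 at PMD-Sen D16, beside 0.12, -0.03 and 0.05 over all tested miRNAs.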

How the data were processed

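Per the paper, the authors prepared libraries with the NEXTFLEX Small RNA-Seq Kit, and trimmed and aligned reads with exceRpt to GRCh38 and miRBase. The authors deposited 1 table of counts per mature miRNA and library, and its values (mostly whole, with library sums that differ) were read to be expected counts that are not normalized. Of 54288 values 1003 are not whole, none of them in the members' rows, and all were rounded. Each of the 36 columns matched the description of 1 sample. Tests used edgeR 4.0.16 in R 4.3.3 with TMM scaling, filterByExpr on the 18 conditions, 1 model over all libraries (18 residual degrees of freedom) and the quasi-likelihood test; p-values were adjusted by Benjamini-Hochberg over all tested miRNAs. The series were compared with day and series as terms. Ratios used counts plus 0.5, run in Python 3.11.15 with SciPy 1.17.1. Their difference between the series was tested by permuting series labels within days. Their correlation with day was tested by permuting the libraries of a series across all days. The fits were tested on simulated data. Intervals cover counting error only, since reads are not independent molecules. A member with few counts, down to 1 per library, has little precision.

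The members, lists and tests were chosen with earlier results of these data known. Named were all members, the cyclin D1 list (the 2 highest and 2 lowest in a comparison), miRNA genes within 100 kb, and for members with a median of at least 20 counts the 3 miRNAs of highest rho. Alternatives were DESeq2 1.42.0, its size factors, total counts, other filters, the 4 libraries of a comparison alone, a replicate block, leaving out libraries or D16, another pseudocount and, added after seeing the data, a GC offset, leaving out PMD-Sen D1 and D2, and the difference between the series. Sequences came from RefSeq.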

Additional observations from a re-analysis of the deposited data

How the results depend on the processing

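The 4 late falls in PMD-Sen kept their direction in every alternative. With total counts, no filter, DESeq2, a GC offset and a replicate block 4 members were called. With a mean of at least 10 counts, which leaves out miR-365a-5p, 3 were called, and without PMD-Sen D1 and D2 0. These settings keep the PMD-Sen D16 libraries that chose the family, so their calls are a description. Without D16 3 were called. Leaving out 1 library gave -1.24 to -0.82 for miR-193a-5p and -1.90 to -1.34 for miR-193b-5p. It gave -2.26 to -1.57 for miR-365a-5p and -1.42 to -0.76 for miR-365b-5p. By correlation, replicate numbers did not pair the samples as a whole (-0.46 to 0.37 over 153 pairs of conditions, 53 above 0.1). Yet at every PMD-Sen time point from D1 to D16, replicate 2 had the higher GC slope and the higher miR-193a-5p level. With the replicate block miR-193a-5p was at -1.09, miR-193b-5p at -1.67, miR-365a-5p at -1.88 and miR-365b-5p at -1.17. Of the 96 member tests against Ctrl, 2 passed, but 4 with no filter, 0 with a mean of at least 10 counts, 0 at adjusted p, 1 with DESeq2, 0 with DESeq2 on only the 4 libraries, and 1 to 4 when 1 library was left out (1 without Ctrl replicate 1, PMD-Sen D1 replicate 2 or DDR-Sen D16 replicate 2, 4 without PMD-Sen D1 replicate 1 or RS replicate 1). The difference between the series called 1 member with no filter and 0 to 2 when 1 library was left out (2 without PMD-Sen D1 replicate 1), and the comparison over D1 to D16 called 1 with total counts and 0 to 1 (1 without DDR-Sen D4 replicate 2). The cause of these changes was not tested. Counts over all miRNAs moved more: PMD-Sen late against early 104, but 57 without D16 and 5 without PMD-Sen D1 and D2, which test fewer libraries, DDR-Sen 57, but 28 without D16 and 29 to 48, the difference 13, but 22 with total counts, 28 with no filter, 26 with a GC offset, 25 with the replicate block and GC offset, 0 without D16 and 0 to 54, and D1 to D16 73, but 16 to 89 when 1 library or 1 replicate number was left out, 16 and 32 being those without replicate numbers 1 and 2.

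Values that were not called and changed sign were these. PMD-Sen late against early, miR-365-3p was at -0.20 with the GC offset with or without the replicate block, and miR-193b-3p at 0.075 with no filter, 0.19 with the GC offset and both together, 0.37 without PMD-Sen D1 and D2, and -0.11 to 0.17 leaving out 1 library. DDR-Sen late against early, miR-193a-5p was at 0.11 without D16, miR-365b-5p at 0.016 with total counts, 0.24 without D16 and -0.20 to 0.031 leaving out 1 library, and miR-365-3p at -0.047 to 0.065. In the difference, miR-365-3p was at -0.021 with total counts, -0.32 with the GC offset and with both, -0.062 without D16 and -0.019 to 0.21, and miR-193b-3p at 0.014 with the GC offset and 0.019 with both. Over D1 to D16, where the ranges leave out 1 library or 1 replicate number, miR-365-3p was at 0.12 with total counts, 0.0094 with a mean of at least 10 counts, 0.083 with the GC offset, 0.075 with both and -0.073 to 0.033, miR-365b-5p at -0.014 with the replicate block, -0.025 with the GC offset, -0.040 with both and -0.46 to 0.45, miR-193a-5p at -0.45 to 0.035 and miR-193b-5p at -0.16 to 0.40.

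Between the series, the miR-365a-5p over miR-365b-5p ratio was at -0.23 without D16 and -0.45 to 0.52 with 1 replicate number left out. The arm ratio of miR-193a was at 0.076 with a pseudocount of 1 and -0.56 to 0.50, that of miR-193b at -0.025 to 0.50 and that of miR-365 at -0.30 to 0.27. With day, r of miR-193b-3p over miR-193a-3p without D16 was 0.32 for PMD-Sen and -0.16 for DDR-Sen. With at least 10 counts in each row, miR-365a-5p over miR-365b-5p gave 0.011 for PMD-Sen, with D16 replicate 1 included, and 0.37 for DDR-Sen. Without D16, PMD-Sen gave -0.81. For the arms of miR-193a in PMD-Sen it was 0.49 with a pseudocount of 1, 0.0068 without D16 and 0.34 to 0.76. For the arms of miR-193b it was 0.50 without D16 and 0.59 to 0.75 in PMD-Sen, and 0.54 with a pseudocount of 1 (no longer called), 0.10 with at least 10 counts, 0.22 without D16 and 0.44 to 0.67 in DDR-Sen. By rank in PMD-Sen with D16, the adjusted p for the arms of miR-193b and miR-365 was 0.0527 for both, 0.0409 for both with a pseudocount of 1, and 0.0233 and 0.0205 with at least 10 counts (100000 permutations), in libraries that chose the family. For the arms of miR-365 r was 0.48 without D16 and 0.78 to 0.88 in PMD-Sen, and 0.53 with a pseudocount of 1 (no longer called), 0.0044 without D16 and 0.38 to 0.70 in DDR-Sen. No library had 10 counts of miR-193a-3p, so that minimum gave no value for its ratios. With 2 libraries per condition and 1 to 22 counts of miR-365a-5p in each, changes of that member are not detectable unless large.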
